A study of Schizosaccharomyces pombe with 8 samples.

Results

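The 3′ untranslated regions (3′ UTRs) of fission yeast, Schizosaccharomyces pombe, were examined as places where small RNAs of 18 to 28 nt were counted. The members are the elements that the deposited table places in its 3′ UTR class, without the 14 that overlap a tRNA, rRNA, snoRNA or snRNA gene on either strand. This left 4746 of the 17962 elements in the table, belonging to 4696 genes. They were divided by whether a transcript annotated on the opposite strand overlaps them: 1898 were overlapped and 2848 were not. Small RNA was sequenced from 8 strains grown in rich medium (YES) at 30 °C to an OD600 of 0.5, with 1 library per strain. All 8 strains, the wild type included, carry ade6-hp+, which is known from the study as a hairpin construct directed against the ade6 gene. The 7 mutants are labelled Paf1Δ and Leo1Δ (deletions), Paf1-G104R, Cdc73-G313R, Rot1-Q472Stop and Leo1-W157Stop (point alleles), and Paf-1Q264Stop, written here as Paf1-Q264Stop. The study is known to have asked whether mutations in the Paf1 complex let small RNAs direct gene silencing. Because each strain has 1 library, no difference between strains has a replicate check and no test between them was possible.

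The level of an element is the deposited value, log2(n + 8), in which n follows the number of reads per length of the element. A level of 3 means no read. Elements were counted as carrying small RNA at a level of 5 or more, which is an n of 24, and a difference between libraries was called higher or lower at 1 or more on the log2 scale. Such a difference was read only for elements at a level of 5 or more in the higher of both libraries, called past the filter below. For a 3′ UTR of the median length, 260 nt, a level of 5 corresponded to 31.6 reads in wild type and to between 6.63 reads (Paf1 deletion) and 20.6 reads (Paf1-Q264Stop) in the mutants. Recovered reads over all elements, which share reads where they overlap, ranged from 917884 (Cdc73-G313R) to 6422517 (wild type). Confidence intervals below are exact 95% intervals. For level ratios they cover counting error of reads only, since amplified reads carry no molecular tags and may be copies of the same molecule. For percentages of UTRs they treat each UTR as an independent count and do not cover differences between cultures. The cultures were measured in bulk, so fewer cells with small RNA at a place and less small RNA per cell cannot be told apart.

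Reads at the named genes did not match every label. Over transcripts without their UTRs, the Paf1 deletion held 0 reads at paf1 against 7 in wild type, and the Leo1 deletion held 2 reads at leo1 against 62. The Leo1 deletion held 0 reads at paf1 as well, so that count does not tell the Paf1 deletion apart. The library labelled Paf1-G104R held 823 reads at prf1, another gene of the complex, against 1 in wild type, and 7 at paf1. The library labelled Cdc73-G313R held 26 reads at paf1 and 0 at cdc73, whereas 149 reads at cdc73 were found in the library labelled Rot1-Q472Stop. The labels Leo1-W157Stop and Paf1-Q264Stop came with 520 reads at leo1 and 181 at paf1. Strain names are therefore used below as names of libraries, and no direction is drawn from the gene in the label.

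Fission yeast genes lie close together, and many neighbours are convergent, so that their transcripts meet or overlap tail to tail. The 3′ UTR of such a gene can pair with RNA of its neighbour, and the RNA interference machinery, with Dicer (Dcr1), Argonaute (Ago1) and the RNA-dependent polymerase Rdp1, can turn paired RNA into short interfering RNA. Cleavage and polyadenylation set where each transcript ends. The Paf1 complex travels with RNA polymerase II and takes part in elongation and in the release of finished transcripts, and it is known to keep small RNAs from setting up heterochromatin at ordinary genes.

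Stretches near the ends of 3′ UTRs on which the results turn are shown here, from UTRs where a searched motif was found. Most windows searched hold no AATAAA, and whether a motif shown ends its transcript was not tested. The sequences are from the RefSeq genome of the species, whose chromosome lengths equal the largest element ends in the table (5579133, 4539804 and 2452883 nt). In that genome, 4646 of 4647 genes with a single 3′ UTR element have a stop codon directly before it (99.98%), so the coordinates of the table and of the genome match. Each line gives 30 bases, 5′ to 3′ on the strand of the UTR, with the motif in capitals. AATAAA is the canonical polyadenylation signal, and TTAAAC is the core of the motif bound by Mmi1, which removes meiotic mRNAs in fission yeast.
SPCC13B11.02c (chromosome 3, 1590030 to 1590059, minus strand): agtggagtggagAATAAAagaatcattact
ucp8 (chromosome 2, 1513934 to 1513963, plus strand): agcatgcttgaaatataAATAAAttaaatt
tif223 (chromosome 1, 5369324 to 5369353, plus strand): tgaaatagatatAATAAAaatttcgtgcac
ape2 (chromosome 2, 2416505 to 2416534, plus strand): aaacgctaatatAATAAAtttctcgtatcg
epe1 (chromosome 3, 1431120 to 1431149, minus strand): ggaactcatataAATAAAtaatccggcgat
pda1 (chromosome 1, 5179654 to 5179683, minus strand): tacgtatatctcAATAAAatttaatttgct
prp16 (chromosome 2, 2169898 to 2169927, plus strand): attgagaggattAATAAAttcattaagaaa
crb2 (chromosome 2, 4213548 to 4213577, plus strand): tcaatttcaataTTAAACaaaaactttctc
The first 4 lines are from UTRs among the 10 of highest mean level in their class and the last 4 from UTRs that were lower in all 7 mutants. The motif starts 13 nt before the annotated end of the UTR at ucp8, 25 nt before it at ape2 and 90 nt before it at epe1.

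Motifs were searched on the strand of the UTR in the last 100 nt of the 4145 members that are at least 100 nt long. AATAAA was found in 26.5% of them, in 30.9% of overlapped and 23.3% of other UTRs. Its share was 31.2% among UTRs at a wild-type level of 5 or more and 25.0% among those below. TTAAAC was found in 6.44% of windows, 6.43% at a level of 5 or more and 6.45% below. The AU-rich element TATTTAT was found in 7.94%, and TGTA, the core of the motif bound by the termination factor Seb1, in 46.3%, again with shares within 2 percentage points on either side of the level (7.02% and 8.23%, 45.7% and 46.5%).

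The 3′ UTRs were rich in small RNA compared with the 5′ ends of genes. In wild type 1164 of the 4746 members (24.5%, interval 23.3% to 25.8%) stood at a level of 5 or more, and they made up 56.02% of all 2078 elements at that level. Of 4813 5′ UTRs chosen by the same exclusion, 76 did (1.58%, interval 1.25% to 1.97%). In the mutant libraries the 3′ UTR share lay between 4.30% (Cdc73-G313R) and 22.5% (Paf1-G104R), and the 5′ UTR share between 0.56% and 3.66%. Most members carried little in any library: 3120 stayed below a level of 5 in all 8 libraries, and 143 reached it in all 8.

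Among 3′ UTRs, small RNA was more frequent with opposite-strand overlap in every library. In wild type 45.6% of overlapped UTRs (865 of 1898, interval 43.3% to 47.8%) and 10.5% of the others (299 of 2848, interval 9.40% to 11.7%) stood at a level of 5 or more. The pairs of shares were 41.1% and 9.94% in the Paf1 deletion, 28.6% and 5.69% in the Leo1 deletion, and 43.9% and 8.29% in Paf1-G104R. They were 38.7% and 7.87% in Paf1-Q264Stop, 36.2% and 5.79% in Rot1-Q472Stop, and 30.8% and 5.34% in Leo1-W157Stop. Cdc73-G313R was lowest, with 9.80% (interval 8.50% to 11.2%) and 0.63% (interval 0.37% to 0.997%). The intervals of the overlapped and other UTRs did not meet in any of the 8 libraries. They treat each UTR as independent, although 913 pairs of UTRs lie under each other's transcripts, so they are no test between the classes. Overlapped UTRs held 82.4% of the 252762 reads on members in wild type and between 84.7% (Paf1-Q264Stop) and 96.0% (Cdc73-G313R) in the mutants. Overlapped 5′ UTRs stood lower, with 4.71% of 701 at the level in wild type, against 1.05% of the 4112 other 5′ UTRs. That is below the 10.5% of 3′ UTRs without overlap, as it was in every mutant but Cdc73-G313R. There overlapped 5′ UTRs had 1.85%, against 0.63% of 3′ UTRs without overlap.

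**Figure D1:**
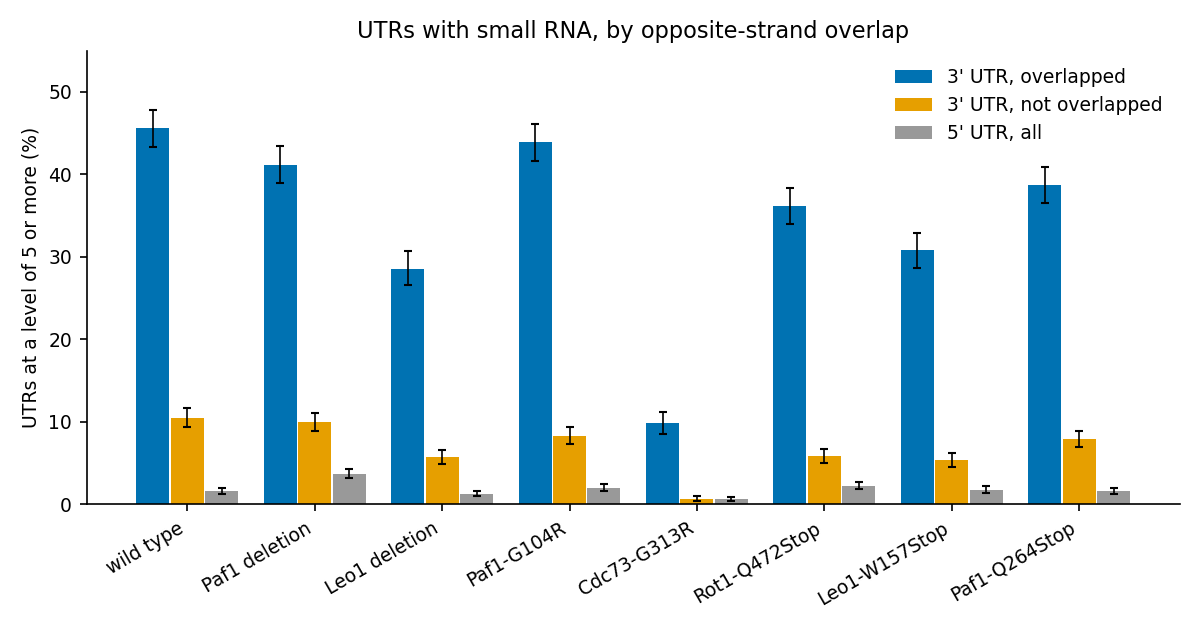
Percent of UTRs at a level of 5 or more (y axis) in each of the 8 libraries (x axis) for overlapped 3′ UTRs, other 3′ UTRs and all 5′ UTRs; error bars are exact 95% intervals. The overlapped 3′ UTRs are the tallest bar in all 8 libraries, from 9.80% in Cdc73-G313R to 45.6% in wild type.

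Some UTRs without overlap end close to an opposite transcript, and in wild type these carried small RNA nearly as often as overlapped UTRs. Among UTRs without overlap, distance was taken from the end of the UTR to the next transcript on the opposite strand, in bins chosen after the values were seen. In wild type 41.8% of the 352 UTRs less than 100 nt from that transcript stood at a level of 5 or more (interval 36.6% to 47.1%), close to the 45.6% of overlapped UTRs. The share was 13.8% of 268 UTRs between 100 and 250 nt, 10.4% of 183 between 250 and 500 nt, 4.91% of 163 between 500 and 1000 nt, and 4.68% of 1882 farther away. In the mutants the share below 100 nt was also under that of overlapped UTRs: 1.70% against 9.80% of overlapped UTRs in Cdc73-G313R, 23.9% against 36.2% in Rot1-Q472Stop and 21.3% against 30.8% in Leo1-W157Stop, and 24.7% to 35.5% against 28.6% to 43.9% in the other 4. Between 100 and 250 nt, 20.5% of UTRs (55 of 268, interval 15.9% to 25.9%) stood at a level of 5 or more in the Paf1 deletion. That was above the wild-type 13.8%, although the intervals meet (9.91% to 18.5% in wild type), while the other 6 mutants lay between 0.37% and 9.33%. In that bin 26 of 68 UTRs past the filter were higher than wild type in the Paf1 deletion and 10 were lower, where 22.3% of all elements past the filter were higher and 19.8% lower. Only 37 of the 68 stood at the level in wild type. The rest passed the filter through the Paf1 deletion alone, where they are high, so the filter itself favours higher calls there. Between 250 and 500 nt the Paf1 deletion had 13.1% of UTRs at the level, with 12 higher and 4 lower of 28, of which 19 stood at the level in wild type. Between 500 and 1000 nt it had 5 higher and 5 lower of 13, and below 100 nt 19 higher and 50 lower of 173.

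**Figure D2:**
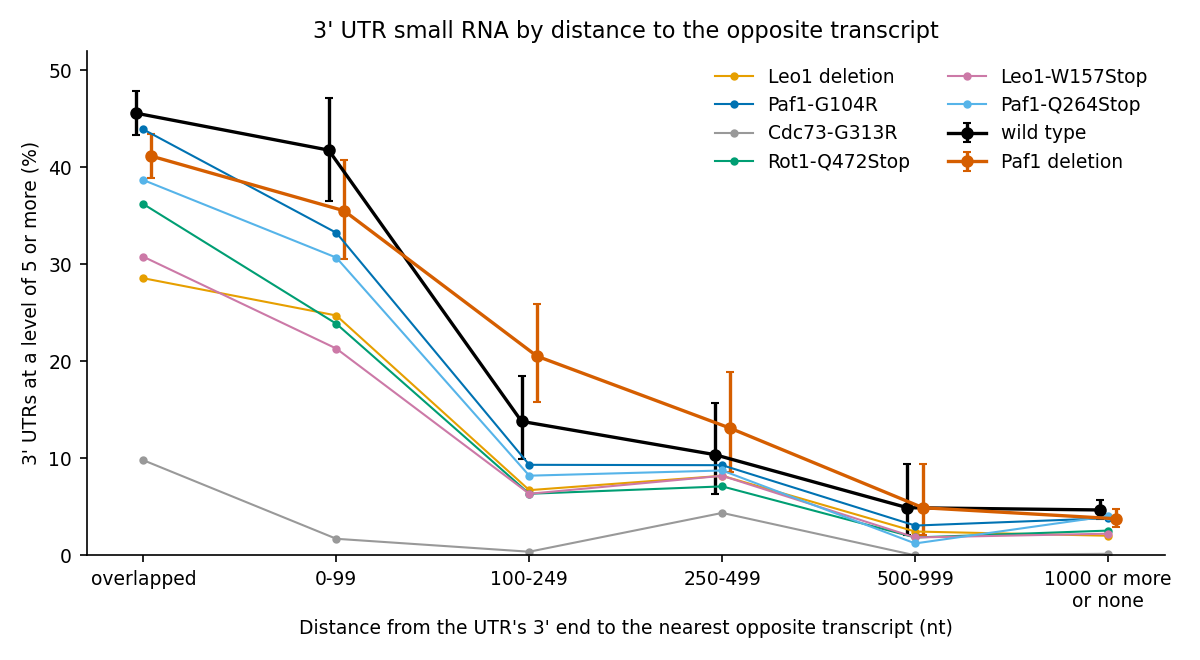
Percent of 3′ UTRs at a level of 5 or more (y axis) by distance from the end of the UTR to the nearest opposite-strand transcript in nt (x axis), 1 line per library; error bars, drawn for wild type and the Paf1 deletion, are exact 95% intervals. The wild-type line goes from 45.6% for overlapped UTRs to 4.68% at the largest distance, and the Paf1 deletion line lies above it between 100 and 500 nt.

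The share of UTRs with small RNA varied with the covered length, and not the same way in all libraries. A median of 147 nt, or 76.9% of the UTR, was covered, and 622 UTRs were covered in full. In wild type 51.9% of the 707 UTRs with under 100 nt covered stood at a level of 5 or more, against 27.7% of the 303 with 1000 nt or more covered. Cdc73-G313R ran the other way, with 6.08% and 17.8%, as did Leo1-W157Stop by less, with 26.9% and 31.4%. The median level under short and long overlap was 5.08 and 4.49 in wild type, 3 and 4.16 in Cdc73-G313R, 4.13 and 4.63 in Leo1-W157Stop, and 4.42 and 4.67 in Rot1-Q472Stop, where the shares were 35.5% and 33.0%. The other 4 libraries gave 33.2% to 45.3% under short overlap and 17.8% to 37.6% under long overlap. These bins, too, were chosen after the values were seen, and the length of the UTR moves with them.

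Overlap in the deposited table is not all that the genome annotation knows. Of the 2848 members without an overlapping deposited transcript, RefSeq places an opposite-strand non-coding RNA gene (and no protein-coding gene) over 1583, a protein-coding gene over 9 and none of both over 1256. In wild type 8.40% of the first and 13.1% of the last stood at a level of 5 or more. An annotated opposite non-coding RNA thus did not come with a higher share, although the median wild-type level was higher with it, 3.40 against 3.24. Distance to the next opposite transcript was not held equal here. Members at a level of 5 or more were shorter than the rest, with median lengths of 249 against 370 nt among overlapped and 172 against 254 nt among other UTRs. Their GC content was near that of the rest, 29.1% against 30.7% and 29.6% against 29.3%.

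The strand of the counted RNA bears on these values. Of the 14 UTRs left out, 7 overlap a structural RNA gene on the same strand and had a median wild-type level of 3.85 (range 3 to 5.32). The 7 that lie opposite such a gene had a median of 8.31 (range 4.19 to 12.75). The dal81 UTR, opposite a tRNA gene, held 15691 reads at a level of 12.75, while the tRNA element itself stood at 4.05. The taf9 UTR stood at 8.31 and the snoRNA element opposite it at 3. At these left-out UTRs, high levels thus came with a structural RNA gene on the opposite strand. The sources used here do not state whether a value counts reads on the strand of the element or on the other strand, and this was not tested for mRNA genes. In the second case, a level given here for a UTR opposite a gene would be that of RNA from the strand of that gene. This limit applies to the comparisons by overlap and by distance above as well as to the levels below.

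Levels were high at most UTRs that lie opposite a ribosomal protein gene, though the highest levels of all were not confined to them. Ribosomal protein genes are among the most strongly expressed genes of a growing cell. The 32 UTRs opposite a ribosomal protein gene had a median wild-type level of 7.24, and 28 of them stood at 5 or more. In 6 mutants the count was 27 to 29, and in Cdc73-G313R it was 20. The 139 UTRs of the ribosomal protein genes themselves had a median of 3.37, with 21 at 5 or more, of which 15 were among the 32 that are overlapped and 6 among the 107 that are not.

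Within pairs the contrast was the same. There were 30 places where the UTR of a ribosomal protein gene and the UTR of another gene lie under each other's transcripts. In wild type the UTR of the other gene had the higher level in 26 of 30 pairs, by 1 or more in 21, and the ribosomal UTR was higher by 1 or more in 0. The median difference was 2.70 on the log2 scale, and 2.41 to 3.31 in the mutants, where the UTR of the other gene was higher in 25 to 27 of 30 pairs. Over all 913 pairs of UTRs under each other's transcripts, both stood at a level of 5 or more in 224 in wild type, a single UTR did in 431, and neither did in 258. These counts were not set against what the share of single UTRs at the level would give. They therefore do not show that small RNA keeps to 1 side of a convergent pair.

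**Figure D3:**
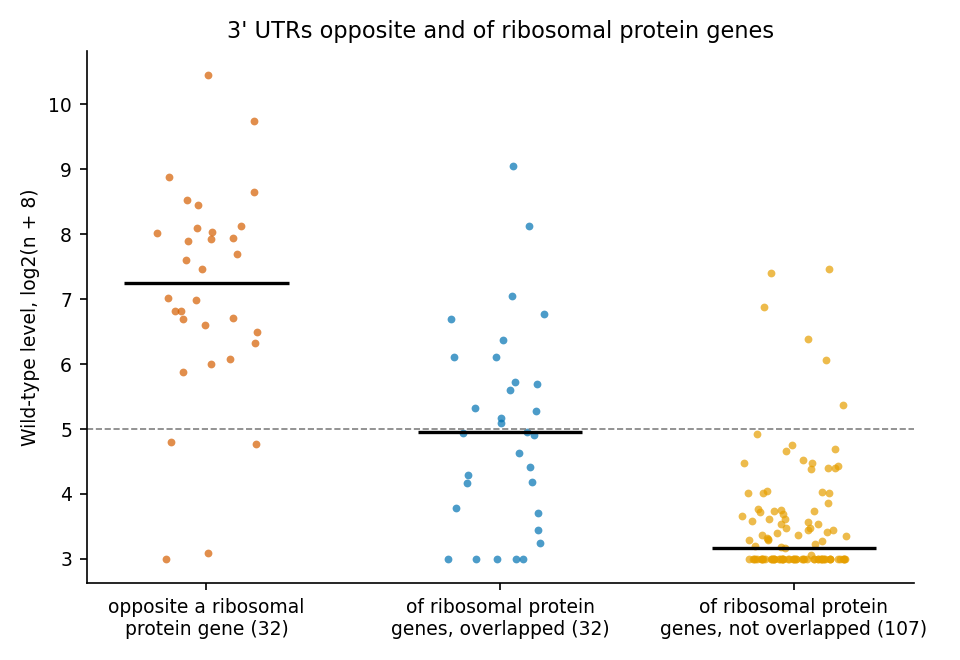
Wild-type level on the log2(n + 8) scale (y axis) of 3′ UTRs opposite a ribosomal protein gene and of the 3′ UTRs of ribosomal protein genes, overlapped or not (x axis); each point is a UTR, black lines are medians and the dashed line is a level of 5. The median is 7.24 for the 32 UTRs opposite a ribosomal protein gene and 3.37 over all 139 UTRs of such genes.

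Smaller lists have few members each, and a UTR opposite a listed gene is overlapped by definition, whereas most UTRs of the glycolysis, histone and meiotic genes are not. Of 4 UTRs opposite a gene of glycolysis or fermentation, 3 stood at a level of 5 or more in wild type, against 2 of the 18 UTRs of those genes, both among the 3 that are overlapped. Both UTRs opposite a histone gene did, at a median of 7.89, against 1 of the 10 UTRs of histone genes, which is 1 of the 2 that are overlapped. The single UTR opposite a gene of the translation factor list stood at 8.39, and 0 of the 8 UTRs of that list reached 5. All 3 UTRs opposite a gene of the meiotic list reached 5 in wild type, ubp8 at 7.27, ade9 at 5.61 and pcf1 at 5.25, against 2 of 7 UTRs of that list, mei3 and mcp7, at 6.03 and 5.72. Among genes of RNA interference or heterochromatin, 4 of 11 UTRs opposite a listed gene reached 5, against 3 of 19 UTRs of those genes. Of those 19, 9 are overlapped and 2 of the 9 reached 5, where 45.6% of all overlapped UTRs did. For mRNA 3′ end formation and termination the counts were 2 of 6 opposite UTRs and 4 of 14 UTRs of the genes. The single UTR opposite a malate gene stood at 4.10, while that of mae1 itself stood at 7.17.

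In the Cdc73-G313R library the UTRs opposite ribosomal protein genes depended on how much of them was covered. The 16 with 300 nt or more covered all stood at a level of 5 or more there, with medians of 8.26 for 13 of them and 7.26 for the 3 with 1000 nt or more. In wild type these medians were 7.93 and 7.02. Of the 12 with under 100 nt covered, 10 stood at 5 or more in wild type and 2 in Cdc73-G313R, and the median was 6.77 and 4.23.

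The UTR with the most reads in all 8 libraries was that of SPCC13B11.02c (chromosome 3, 1589996 to 1593401, minus strand). It is 3406 nt long and 2894 nt of it lie under adh1, the gene of the main alcohol dehydrogenase, which runs the other way. It held 14209 reads at a level of 9.70 in wild type. Its level was 11.33 in the Paf1 deletion, 10.10 in the Leo1 deletion, 10.30 for Paf1-G104R, 9.93 for Paf1-Q264Stop, 10.36 for Leo1-W157Stop, 10.42 for Rot1-Q472Stop and 10.99 for Cdc73-G313R. Every mutant was thus above wild type, by 1 or more in the Paf1 deletion and Cdc73-G313R. It alone held 5.62% of all member reads in wild type and 22.4% in Cdc73-G313R. The UTR of adh1 (1592412 to 1592889, plus strand), which lies wholly under SPCC13B11.02c, stood at 5.84 in wild type, at 8.54 in the Paf1 deletion and at 3.47 in Cdc73-G313R. In that last library the opposite sides of the same locus lay 9457 reads to 2.

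Member reads were more concentrated in Cdc73-G313R in general. The 10 UTRs with the most reads held 40.2% of member reads there, against 14.8% in wild type and 16.7% to 25.7% in the other mutants. Members made up 3.94% of recovered reads in wild type and 4.59% in Cdc73-G313R. Counted per length, they made up 14.6% of the total in wild type and 3.40% in Cdc73-G313R.

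The other overlapped UTRs of highest mean level lay opposite a mixed set of genes. The 42 nt UTR of trs23, which encodes a subunit of the TRAPP trafficking complex, lies under rpp102, the gene of a ribosomal stalk protein, and stood at 10.45 in wild type, with mutants between 9.14 and 10.49. The UTR of rrp40, an exosome subunit, is covered by dak1 (dihydroxyacetone kinase) over 42 of its 353 nt. It reached 10.87 in wild type, 8.99 to 10.69 in 6 mutants and 6.95 in Cdc73-G313R. The UTR of chl1, a DNA helicase gene opposite rpl4101, stood at 9.75 in wild type and at 10.20 in Cdc73-G313R. It is covered over 428 of its 638 nt. The extent of overlap did not order the levels in that library: SPAC11E3.12, covered over 307 of 614 nt, went from 9.15 to 5.52 and the wholly covered trs23 from 10.45 to 9.14. Others among the 10 of highest mean level were uba2 (opposite pfk1, phosphofructokinase, 9.48 in wild type), rer2 (opposite pop2, 10.96), SPAC11E3.12 (opposite gas5, 9.15), ucp8 (opposite rpl4302, 8.88) and SPAC1805.10 (opposite rps2602 and ubi2, 8.65).

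Some UTRs without overlap reached similar levels. The highest mean belonged to ccc2, a copper transporter gene, at 10.91 in wild type, but its UTR is 16 nt long and lies 15 nt from an opposite transcript. It is shorter than the reads, as are 17 members under 18 nt, so its level rests on reads that extend past it. The UTR of cyt2, 22 nt long and 28 nt from such a transcript, stood at 10.01. The UTR of psf3, a subunit of the GINS replication complex, is 221 nt long and 1369 nt from the next opposite transcript (chromosome 1, 527782 to 528002, minus strand). It held 1137 reads at a level of 9.998 in wild type. Its level was 8.82 in the Paf1 deletion, 9.33 in the Leo1 deletion, 9.94 for Paf1-G104R, 9.80 for Paf1-Q264Stop, 9.07 for Leo1-W157Stop, 9.61 for Rot1-Q472Stop and 6.21 for Cdc73-G313R. The UTR of sol1, a subunit of the SWI/SNF remodeller, lies 11811 nt from an opposite transcript and stood at 9.87 in wild type. The rest of the first 10 were tif223 at 9.49, ade6 at 9.23, tnr3 at 8.86, tea1 at 8.53, ape2 at 8.25 and dfg10 at 8.11 in wild type. Of these 10, ape2 alone was higher in Cdc73-G313R (8.67) than in wild type.

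Where a 3′ UTR carried small RNA, its level was usually above that of the rest of its transcript. This was compared for members inside the transcript of their own gene and at a level of 5 or more. In wild type the UTR was above the rest for 1138 of 1156 (98.4%, interval 97.6% to 99.1%), by a median of 2.42 on the log2 scale. The share was 97.0% to 99.5% in the mutants and the median difference 1.90 (Paf1 deletion) to 2.48 (Cdc73-G313R). Overlapped UTRs and the others hardly differed in this, with 98.3% and 98.99% in wild type. These UTRs were chosen for a high level of their own, which by itself favours the UTR in this comparison. With genes chosen for a level of 5 or more in either the UTR or the rest, a choice made after the values were seen, the UTR was above the rest for 1138 of 1252 (90.9%) in wild type and for 85.6% to 91.7% in the mutants. Among the 166 genes whose rest stood at 5 or more in wild type, the UTR was above it for 52 (31.3%).

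Against wild type, more 3′ UTRs were lower than higher in each mutant library. The 7 comparisons share the same wild-type library, which is also the deepest. Most members past the filter passed it through wild type, where 1164 stood at a level of 5 or more, and 31 (Cdc73-G313R) to 287 (Paf1 deletion) passed through the mutant alone, so the filter itself favours lower calls. All elements of the table shifted too, so each count is set beside the percentage of all elements past the same filter. In the Leo1 deletion 434 of 1205 members past the filter were lower, where the background was 29.6%, and 23 were higher, where it was 5.08%. In Cdc73-G313R 982 of 1195 were lower (background 74.9%) and 15 higher (background 3.92%). Leo1-W157Stop had 531 lower and 58 higher of 1274, with backgrounds of 32.9% and 8.73%. Rot1-Q472Stop had 392 lower and 56 higher of 1282, with backgrounds of 26.3% and 8.37%. Fewer were called in Paf1-G104R, with 129 lower and 33 higher of 1298 (backgrounds 9.79% and 4.58%), and in Paf1-Q264Stop, with 161 lower and 30 higher of 1256 (backgrounds 12.6% and 3.8%).

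The Paf1 deletion differed from the others in its background. There 400 of 1451 members were lower, 27.6% where the background was 19.8%, and 197 were higher, 13.6% where the background was 22.3%. Among overlapped UTRs the counts were 283 lower and 109 higher of 1039, and among the others 117 lower and 88 higher of 412. Elements other than members showed 30.8% higher and 12.2% lower. In the Paf1 deletion, 3′ UTRs were thus called lower more often and higher less often than elements elsewhere in the table. The Paf1 deletion library is also the one in which a single read is worth the most, so its low levels rest on the fewest reads.

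The median difference over members past the filter was -0.30 in the Paf1 deletion, -0.82 in the Leo1 deletion, -0.20 for Paf1-G104R, -0.34 for Paf1-Q264Stop, -0.80 for Leo1-W157Stop, -0.57 for Rot1-Q472Stop and -2.24 for Cdc73-G313R. The median over all elements, in the same order, was 0.01, -0.70, -0.11, -0.31, -0.48, -0.39 and -2.00. Relative to all elements, members therefore differed by -0.30, -0.11, -0.09, -0.03, -0.32, -0.18 and -0.24. After levels were centred on all elements, 89 members were lower and 60 higher in the Leo1 deletion, 241 and 214 in Cdc73-G313R, 80 and 63 in Paf1-Q264Stop, 222 and 111 in Rot1-Q472Stop, 327 and 141 in Leo1-W157Stop and 402 and 196 in the Paf1 deletion. In Paf1-G104R 47 were higher and more than that were lower. With centring the excess of lower over higher UTRs thus became small in the Leo1 deletion, Cdc73-G313R and Paf1-Q264Stop and remained in the other 4. Quantile normalization instead left 569 lower and 253 higher in Cdc73-G313R, and 108 lower and 46 higher in the Leo1 deletion.

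The share of lower calls was higher among UTRs without overlap than among overlapped UTRs in 6 mutants, and nearly the same in the Paf1 deletion. The percentages were 28.4% and 27.2% in the Paf1 deletion, 45.1% and 32.8% in the Leo1 deletion, 14.8% and 8.26% in Paf1-G104R and 97.7% and 77.0% in Cdc73-G313R. They were 17.8% and 11.03% in Paf1-Q264Stop, 44.9% and 25.8% in Rot1-Q472Stop and 53.7% and 37.6% in Leo1-W157Stop. In the Paf1 deletion they were also higher more often, 21.4% against 10.5%. The filter bears on this: all 299 UTRs without overlap that passed it in Cdc73-G313R did so through wild type, against 865 of 896 overlapped UTRs. With a mean of both libraries of 5 or more instead, applied by class after the values were seen, the percentages lower were 93.8% of 96 and 69.7% of 455 in Cdc73-G313R, 37.2% and 30.4% in the Leo1 deletion, 34.3% and 22.3% in Rot1-Q472Stop and 44.0% and 32.3% in Leo1-W157Stop. They were 9.16% and 6.26% in Paf1-G104R, 11.6% and 8.73% in Paf1-Q264Stop and 24.7% and 23.9% in the Paf1 deletion. The difference between the classes was not tested.

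**Figure D4:**
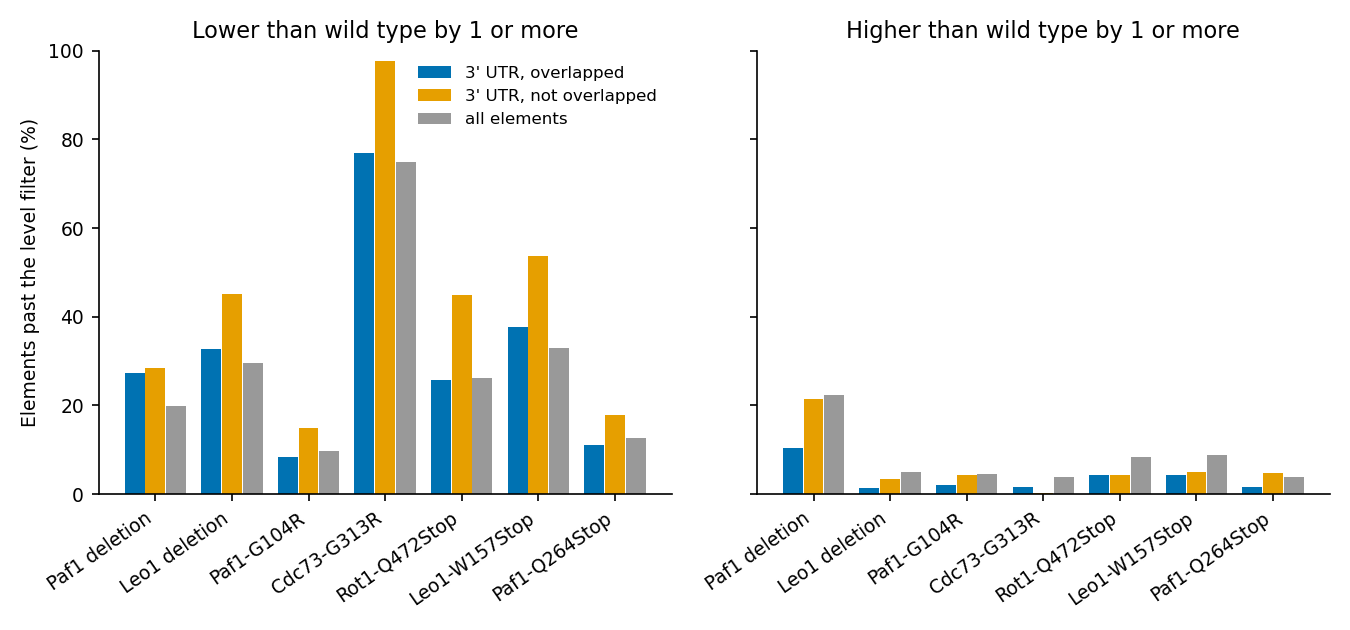
Percent of elements past the level filter (y axis) that were lower (left) or higher (right) than wild type by 1 or more in each of the 7 mutant libraries (x axis), for overlapped 3′ UTRs, other 3′ UTRs and all elements; there is 1 library per strain and no error bar. The tallest bar is that of the not overlapped UTRs in Cdc73-G313R, 97.7% lower, all of which passed the filter through their wild-type level.

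No 3′ UTR was higher in all 7 mutants and 20 were lower in all 7, among 1168 members past the filter in every comparison. Of the 1168, 1164 passed through their wild-type level and 4 through all 7 mutants, so this filter leaves little room for members higher in all 7. Over all elements, 0.239% were higher in all 7 and 2.29% were lower, so the 1.71% of members that were lower is no more than the background. After centring on all elements, 4 of the 20 were still lower in all 7, and jmj4 and rad26 became higher in all 7. Of the 20 lower UTRs, 12 are overlapped (of 869) and 8 are not (of 299).

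The largest median difference belonged to SPAC11D3.14c (chromosome 1, 131190 to 131318, minus strand), whose UTR is overlapped by hsp3104. It held 235 reads at a level of 8.52 in wild type. Its level was 3.94 in the Paf1 deletion, 5.09 in the Leo1 deletion, 6.09 for Paf1-G104R, 4.98 for Paf1-Q264Stop, 4.62 for Leo1-W157Stop, 4.57 for Rot1-Q472Stop and 3 for Cdc73-G313R. All 7 mutants lay far below wild type, and the mildest, Paf1-G104R, held 24 reads against 144 predicted from wild type, a level ratio of 0.167 (interval 0.105 to 0.254). Cdc73-G313R held 0 reads, at least 21.2-fold lower with 3 reads as the limit of a count of 0 in that library.

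The UTR of alg12, a mannosyltransferase gene, is covered by mas5 over 32 of its 269 nt (chromosome 2, 1083316 to 1083584, minus strand). It held 455.5 reads at 8.42 in wild type. Its level was 6.22 in the Paf1 deletion, 6.18 in the Leo1 deletion, 7.11 for Paf1-G104R and 3 for Cdc73-G313R. For Rot1-Q472Stop, Leo1-W157Stop and Paf1-Q264Stop it was 6.42, 5.94 and 6.55. Its level ratios ran from 0.159 (interval 0.0965 to 0.249) in Leo1-W157Stop to 0.390 (interval 0.314 to 0.482) in Paf1-G104R, with 0 reads in Cdc73-G313R. The UTR of trl1, the tRNA ligase gene, went from 6.78 to between 3.97 and 5.61, and that of SPBC557.02c from 7.41 to between 4.08 and 6.01. The remaining 2 of the first 6 rest on UTRs shorter than a read. The UTR of sgo1, the gene of the cohesin protector shugoshin, is 10 nt long and held 25 reads in wild type. The UTR of git1 is 12 nt long and held 2 reads in wild type and 0 in every mutant.

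The other 14 were named for completeness after their values were seen. The deepest was epe1, which encodes a JmjC protein that counters the spread of heterochromatin (chromosome 3, 1431048 to 1431698, minus strand). Its UTR is not overlapped and held 1076 reads at a level of 8.38 in wild type. The levels were 7.06 in the Paf1 deletion, 6.55 in the Leo1 deletion, 7.26 for Paf1-G104R, 7.01 for Paf1-Q264Stop, 5.98 for Leo1-W157Stop, 6.67 for Rot1-Q472Stop and 3.64 for Cdc73-G313R. Level ratios were between 0.169 (interval 0.125 to 0.224) in Leo1-W157Stop and 0.448 (interval 0.392 to 0.510) in Paf1-G104R for 6 libraries, and 0.0137 in Cdc73-G313R, where 4 reads were left. The UTR of arp2, a subunit of the actin-nucleating Arp2/3 complex, went from 8.33 with 777 reads to between 4.996 and 7.28. The UTR of pda1, a pyruvate dehydrogenase subunit gene, went from 7.58 to between 4.01 and 6.04, and that of pdx1 from 6.57 to between 3.72 and 5.47. The UTR of prp16, a splicing factor gene, lies opposite cdc73 and went from 6.78 to between 3.67 and 5.76, with a median difference of -0.91 after centring on all elements. That of prp24 held 11 reads in wild type on 21 nt. The rest were crb2, a DNA damage checkpoint gene, erp2, osh3, sua5, csi2, aha1, mis17 and SPCC162.02c, with wild-type levels between 5.17 and 6.31 and between 36 and 93 reads.

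Among the members, 294 were higher in at least 1 mutant and 234 of them in exactly 1. The same was not counted over all elements, so this is not shown to be particular to 3′ UTRs. The Paf1 deletion by itself had 197 higher members, and 287 members passed the filter only through it. In 5 or more mutants 8 were higher, a list made after the values were seen and likewise not counted over all elements. They are the UTRs of vtc4, cox4, jmj4, mug45, set6, sxa2 and rad26, and the longer UTR element of SPAC11E3.12. Those of mug45 and set6 are 30 and 25 nt long and held 6 reads or fewer in each library. The UTR of cox4, a subunit of cytochrome c oxidase (chromosome 1, 712151 to 712354, plus strand), overlaps that of sxa2 (712217 to 712490, minus strand), which encodes a carboxypeptidase that inactivates a mating pheromone. At cox4 the level was 5.17 in wild type with 29 reads. It was 5.49 in the Paf1 deletion, 8.55 in the Leo1 deletion, 7.89 for Paf1-G104R, 9.101 for Paf1-Q264Stop, 7.95 for Leo1-W157Stop, 10.37 for Rot1-Q472Stop and 4.48 for Cdc73-G313R. On the other strand sxa2 stood at 5.57 in wild type and at 6.66, 6.80, 6.09, 7.53, 6.86, 8.48 and 5.41 in that order. The libraries past a difference of 1 were not all the same: sxa2 was called in the Paf1 deletion and not in Paf1-G104R, and cox4 the other way round. Both were highest in Rot1-Q472Stop, where cox4 held 527 reads against 11.2 predicted, a level ratio of 46.9 (interval 32.2 to 70.7).

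**Figure D5:**
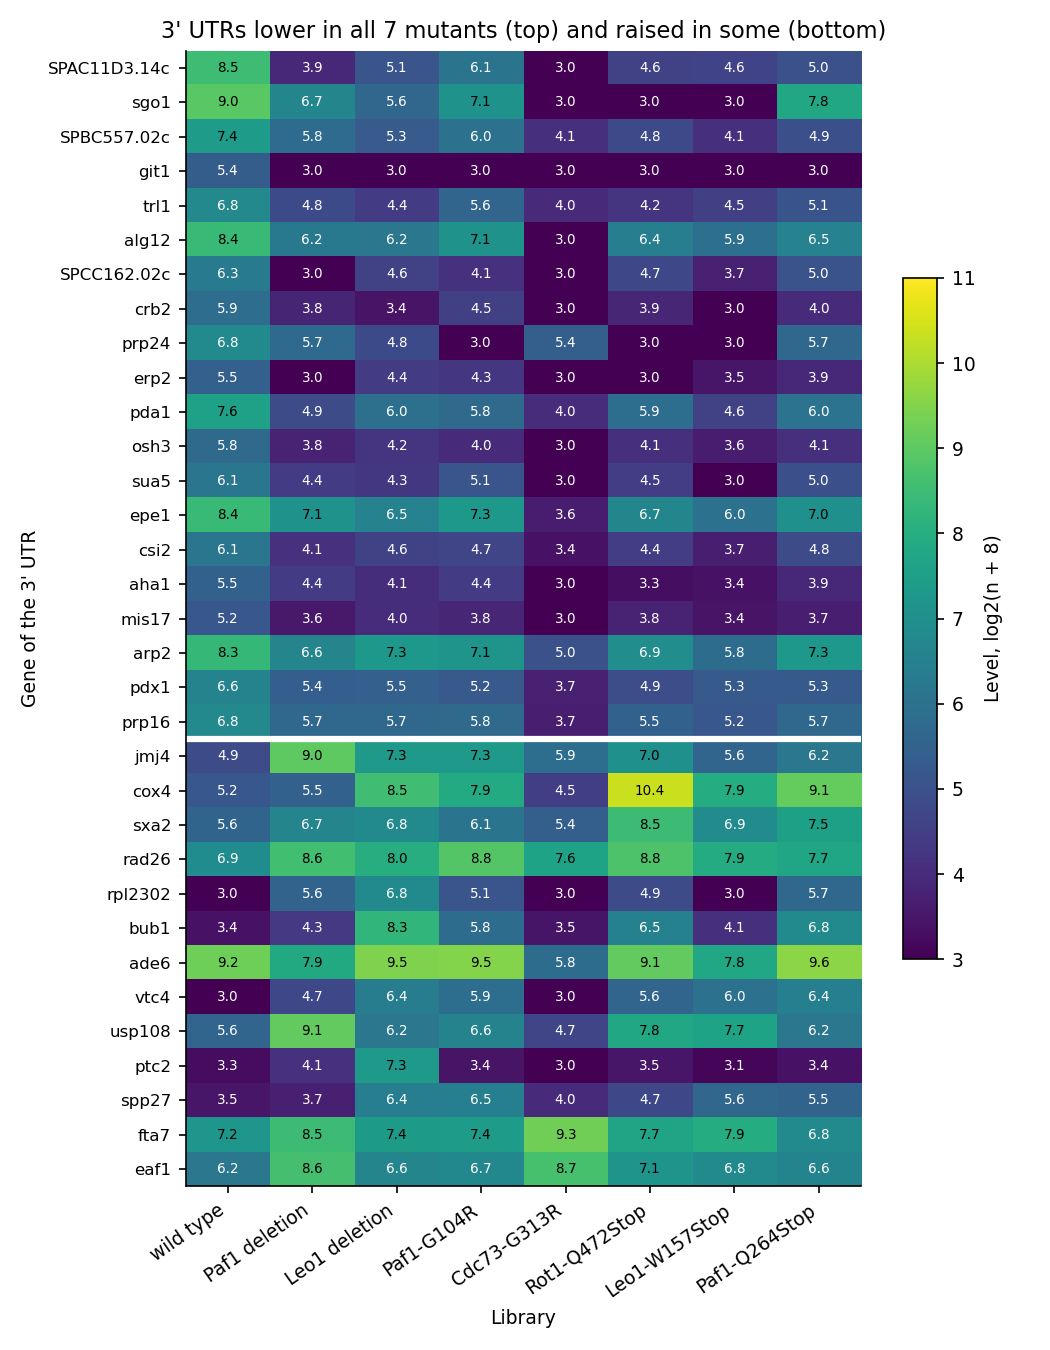
Level on the log2(n + 8) scale (colour and printed value) of named 3′ UTRs (rows, by gene) in the 8 libraries (columns); the upper block holds the 20 UTRs lower in all 7 mutants and the lower block UTRs that were higher in some. The wild-type column is the brightest in every row of the upper block, and cox4 reaches 10.37 in Rot1-Q472Stop.

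At ade6, the gene that the hairpin is directed against, 4 neighbouring genes have a member, rpl2302, bub1, ade6 and vtc4, none of them overlapped (chromosome 3, 1312337 to 1318424). The UTR of ade6 (1317996 to 1318070, plus strand) had a level of 9.23 in wild type, 7.77 to 9.60 in 6 mutants and 5.82 in Cdc73-G313R. The UTR of bub1, a spindle checkpoint kinase gene, went from 3 reads in wild type to 169 in the Leo1 deletion, 36 in Paf1-G104R, 39 in Rot1-Q472Stop and 82 in Paf1-Q264Stop, and held 3 in Leo1-W157Stop, 3 in the Paf1 deletion and 1 in Cdc73-G313R. The 50 nt UTR of vtc4, a polyphosphate polymerase gene, had 0 reads in wild type and 0 in Cdc73-G313R. It held 1 in the Paf1 deletion, 9 in the Leo1 deletion and 8 in Paf1-G104R. In Rot1-Q472Stop, Leo1-W157Stop and Paf1-Q264Stop it held 4, 4 and 13. On the far side of bub1, the 48 nt UTR of rpl2302, a ribosomal protein gene that converges on bub1 at a distance of 175 nt (1312337 to 1312384, plus strand), also had 0 reads in wild type. It held 2 in the Paf1 deletion, 12 in the Leo1 deletion, 4 in Paf1-G104R, 2 in Rot1-Q472Stop and 7 in Paf1-Q264Stop, and 0 in Cdc73-G313R and Leo1-W157Stop. In the Leo1 deletion it was at least 8.56-fold higher than wild type, with 3 wild-type reads as the limit of a count of 0. Beyond bub1, on the side away from ade6, reads were thus found in the Leo1 deletion, though few.

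Other UTRs were high in particular libraries. The UTR of ptc2, a protein phosphatase gene (chromosome 3, 1864870 to 1866637, plus strand), held 644 reads in the Leo1 deletion against 6.54 predicted from wild type, a level ratio of 98.5 (interval 58.3 to 181). Its level was 7.34 there, 3.26 in wild type and 3 to 4.14 in the other mutants. The UTR of spp27, a transcription factor subunit for RNA polymerase I (1833061 to 1834169, plus strand), had a level of 3.49 in wild type. It reached 6.42 in the Leo1 deletion, 6.47 in Paf1-G104R, 5.64 in Leo1-W157Stop and 5.54 in Paf1-Q264Stop, and stood at 3.71, 3.99 and 4.72 in the Paf1 deletion, Cdc73-G313R and Rot1-Q472Stop. The UTR of SPBC1652.02 held 5.2 recovered reads in wild type and 92 in Leo1-W157Stop (level ratio 66.9, interval 27.6 to 211), 68.7 in Paf1-G104R and 1 to 25 elsewhere. In Rot1-Q472Stop the UTR of rpl3702 held 12 reads against 0 in wild type, at least 10.3-fold higher.

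The UTR of jmj4, wholly covered by the transcript of str2, a siderophore transporter gene, stood at 4.86 in wild type and 9.002 in the Paf1 deletion (43.9 reads, level ratio 23.4, interval 11.3 to 54.4). It was also the single member higher in 6 mutants, at 5.62 to 7.33 in the other 6. The UTR of usp108, a U1 snRNP gene wholly under arp42, stood at 5.60 in wild type and rested on 954 reads at 9.08 in the Paf1 deletion (level ratio 13.2, interval 11.6 to 14.9). It was 7.65 for Leo1-W157Stop, 7.78 for Rot1-Q472Stop and 4.69 for Cdc73-G313R. The third UTR with a large increase there, that of SPAC24H6.10c, held 8 reads on 64 nt, against 1 in wild type. The UTR of rad26, a checkpoint gene overlapped by atd1, went from 6.90 in wild type to between 7.63 (Cdc73-G313R) and 8.84 (Paf1-G104R), above wild type in all 7 libraries.

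Cdc73-G313R had 15 higher members, among them eaf1 (chromosome 3, 1860094 to 1860766, minus strand), fta7 and the longer UTR element of SPAC11E3.12. The UTR of eaf1, which is not overlapped, stood at 6.18 in wild type, 8.68 in Cdc73-G313R and 8.63 in the Paf1 deletion, against 6.62 to 7.15 in the other 5. Its level ratios in the first pair were 6.25 (interval 5.28 to 7.42) and 6.04 (interval 5.04 to 7.24). The UTR of fta7, a kinetochore gene whose UTR is wholly covered by pdh1, stood at 7.19 in wild type and was highest in the same libraries, at 9.25 in Cdc73-G313R and 8.49 in the Paf1 deletion.

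Among the members with the largest decreases in single libraries, rlc1, which encodes a myosin light chain (chromosome 1, 3888125 to 3888497, plus strand), rested on the most reads. It went from 1395.5 reads at 9.54 in wild type to 4 reads at 3.98 in Cdc73-G313R. Its level was 7.75 in the Paf1 deletion, 6.72 in the Leo1 deletion, 8.88 for Paf1-G104R, 7.34 for Leo1-W157Stop, 8.49 for Rot1-Q472Stop and 7.40 for Paf1-Q264Stop. The UTR of tom20, a subunit of the mitochondrial import receptor, had 106 reads in wild type and 0 in Cdc73-G313R, at least 9.55-fold lower. The UTR of ddx27 had 120 reads in wild type and 0 in the Paf1 deletion, at least 8.37-fold lower, yet 87 reads in Paf1-G104R, where its level was 7.53 against 7.30 in wild type. That of SPAC3H1.08c had 51 reads in wild type, 0 in the Paf1 deletion and 47 in Paf1-G104R. The UTR of SPAC1A6.11 had 67.5 reads in wild type and 1 in Paf1-G104R. The UTRs of SPAC23C11.06c (38 reads in wild type), nup131 (12), rsm24 (48), sac3 (16), cox8 (16), chs2 (10) and rps23 (9) were at 0 reads in the library that named them, all on 52 nt or less.

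The lists of genes for RNA interference and 3′ end formation had few members at a level of 5 or more. Of 19 UTRs of RNA interference and heterochromatin genes, 3 stood at a level of 5 or more in wild type, rdp1 at 6.55, arb2 at 6.28 and stc1 at 5.19, and arb1 stood just below at 4.94. In the mutants 0 (Cdc73-G313R) to 5 (Paf1 deletion) of them did. Of those past the filter, 1 of 6 was higher and 1 of 6 lower in the Paf1 deletion, where 22.3% and 19.8% of all elements were. In the other mutants 0 were higher, and 3 of 3 were lower in Cdc73-G313R (74.9% of all elements), 2 of 4 in Leo1-W157Stop (32.9%), 1 of 4 in the Leo1 deletion (29.6%) and 0 in the remaining 3. Of 14 UTRs of genes for mRNA 3′ end formation and termination, 4 stood at 5 or more in wild type. That of pcf11, a cleavage and termination factor gene, stood at 6.45 in wild type, 8.02 in Cdc73-G313R, 7.47 in the Paf1 deletion and 6.26 to 7.11 in the others. That of dhp1, the nuclear 5′ to 3′ exonuclease that ends transcription, stayed between 4.64 and 5.29 in all 8 libraries. The 15 nt UTR of cft2 held 6 reads in wild type.

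All 5 genes of the Paf1 complex have a member. The UTR of leo1 is 1085 nt long and wholly covered by SPBC13E7.07. It held 168 reads at a level of 5.27 in wild type and 198 reads at 6.41 in the Leo1 deletion (level ratio 2.52, interval 2.04 to 3.12), although the rest of the leo1 transcript held 2 reads there. The other mutants stood at 5.02 to 5.84. The UTR of paf1 stood at 5.37 in wild type, 5.95 in Paf1-Q264Stop and 4.58 in the Paf1 deletion, with 2 reads. The UTR of prf1 held 1 read in wild type and 21 in the library labelled Paf1-G104R, the library with many prf1 transcript reads. The UTR of cdc73 held 6 reads in wild type and 13 in the library labelled Rot1-Q472Stop, the library with many cdc73 transcript reads. That of tpr1 held 8 reads or fewer in each library.

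The UTRs of ribosomal protein genes went different ways in the libraries. Of their own UTRs past the filter, 11 of 34 were higher and 8 lower in the Paf1 deletion, where 22.3% of all elements were higher and 19.8% lower. Only 21 of the 34 stood at the level in wild type, and the rest passed through the Paf1 deletion alone, where they are high. Over all 139 the median difference there was 0. In Cdc73-G313R 0 were higher and 21 lower of 22 (3.92% of all elements higher and 74.9% lower). Leo1-W157Stop had 0 and 10 of 21 (8.73% and 32.9%), and the Leo1 deletion 3 and 11 of 23 (5.08% and 29.6%). Rot1-Q472Stop had 1 and 10 of 22 (8.37% and 26.3%), and Paf1-Q264Stop 1 and 5 of 23 (3.8% and 12.6%). Paf1-G104R had 3 and 1 of 27 (4.58% and 9.79%). Those of highest mean level were rps2602, at 9.04 in wild type with mutants at 5.73 to 9.52, rps1401, at 8.13 and 5.02 to 8.83, and rpl2701, at 7.47 and 3.70 to 7.57. Among the UTRs opposite ribosomal protein genes 0 were higher in any mutant, where 3.8% (Paf1-Q264Stop) to 22.3% (Paf1 deletion) of all elements were. With 28 or 29 past the filter in each mutant, nothing is drawn from the 0. Of them 11 of 29 were lower in Cdc73-G313R and 4 of 28 in the Leo1 deletion and in Leo1-W157Stop. The others had 3 of 28 in Rot1-Q472Stop, 2 of 28 in the Paf1 deletion, 1 of 29 in Paf1-G104R and 0 of 28 in Paf1-Q264Stop. These lower counts are to be read against the shares of all elements lower in each library, given above.

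In the list of glycolysis and fermentation genes, 3 of 18 UTRs were past the filter in the Paf1 deletion and all 3 were higher, where 22.3% of all elements were: adh1, pgk1 (phosphoglycerate kinase) and pgi1 (glucose-6-phosphate isomerase). Over all 18 the median difference was 0.024, and pgk1 passed the filter only through the Paf1 deletion, where it is high. The UTR of pgk1 went from 14 reads at 3.99 in wild type to 41 reads at 6.88, a level ratio of 13.99 (interval 7.47 to 27.8), and stood at 3.33 to 4.39 in the other mutants. The UTR of pgi1 went from 5.45 to 6.65 in the Paf1 deletion and stood at 3 to 5.15 elsewhere. Histone genes gave 1 higher of 3 past the filter in the Paf1 deletion, where 22.3% of all elements were higher, and only 1 of the 3 stood at the level in wild type. The UTR of hht3 stood at 5.93 in wild type with mutants at 3 to 5.37, that of hta1 at 4.74 and 3.57 to 5.42, and that of htb1 at 3.94 and 3 to 4.96. For the translation factor list, tif51, tif11 and tef101 stood at 3.34, 3.83 and 4.03 in wild type and no member passed the filter in any library. In the meiotic list, mei3 went from 6.03 in wild type to between 3.34 and 5.71, mcp7 from 5.72 to between 3.83 and 5.40, and spo5 from 4.33 to between 3 and 4.08. Of the malate genes, mae1, a malate transporter gene opposite npc2, had a level of 7.17 in wild type, 6.53 to 7.27 in 6 mutants and 3.57 in Cdc73-G313R, and mae2 at 3.26 and 3 to 3.21. The lists for nmt1 and for the telomere-linked helicases tlh1 and tlh2 have no member.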

How the data were processed

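Small RNA of 18 to 28 nt was isolated from 25 µg of RNA on a 17.5% gel and sequenced from 8 strains, 1 library each, per the labels' protocols. CASAVA 1.8 and Bowtie 0.9.9.1 are listed in the submitters' processing notes. Which build, annotation and counting rules the authors used is not given in the sources used here. For 17962 elements, the deposited table holds log2 values, log2(n + 8). The n of each library sums to 907489, and n times element length gave whole reads within 0.05 for 79.7% to 89.3% of values, so reads could be recovered.

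Members were UTR elements clear of tRNA, rRNA, snoRNA and snRNA elements, matched to RefSeq by locus tag (4732 of 4746). A difference was read only where the higher library stood at a level of 5 or more. Level ratios carry exact 95% intervals conditional on the summed reads, and a count of 0 was given a floor of 3 reads per library. Calls have no test across strains. The steps were tested on simulated data.

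Named UTRs were the 10 of highest mean level per class, up to 6 per direction among those changed in all 7 mutants, up to 3 per direction in each mutant whose interval excluded 1, the members of the short lists and up to 3 of highest mean level in each other list, with opposite-strand partners. A single UTR that this rule names is not reported here. Members and lists were chosen with earlier results of these data known. Symbols of RNase P subunits, which share the start rpp, were dropped from the ribosomal list after the values were seen. Alternatives covered the level, overlap, length, scaling, filter and offset. Python 3.11.15, numpy 2.4.6, pandas 2.3.3 and scipy 1.17.1 were used.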

Additional observations from a re-analysis of the deposited data

How the results depend on the processing

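No paired analysis was possible because each strain has 1 library, and leaving out a replicate was not possible for the same reason. Of the alternative values computed for the main comparisons, 82 stayed within the limits set for a stable value, 117 moved and 0 turned their direction. Counts of UTRs and percentages above the rest of the transcript could only be labelled as stable or moved. The 0 therefore speaks only for the differences between overlapped and other UTRs and for the medians. Of those for single named UTRs, 184 stayed the same, 2 lost their call and 0 reversed. The 2 belong to prp16, whose median difference was -0.91 after centring on all elements and -0.89 after quantile normalization. Why values moved was not tested, except where fewer or more UTRs enter by construction. The bins of distance and of covered length were chosen after seeing the data.

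The difference between overlapped and other UTRs in the percent at the level, 35.1 points for wild type and between 9.17 and 35.6 for the mutants, kept its direction under every threshold, class and length tried. In the order wild type, then the Paf1 and Leo1 deletions, then Paf1-G104R and Cdc73-G313R, then Rot1-Q472Stop with Leo1-W157Stop, and last Paf1-Q264Stop, a level of 4 gave 53.6, 46.6, 48.1, 54.6, 32.2, 52.1, 48.0 and 52.7 points. A level of 6 gave 17.8, 13.1, 8.99, 14.6, 3.88, 13.0, 10.01 and 12.6 points. In the same order without Leo1-W157Stop, UTRs of 100 to 600 nt gave 41.9, 34.0, 27.7, 41.1, 5.77, 33.1 and 35.5 points. An overlap of 50% of the UTR or more gave 25.2, 26.8, 17.3, 28.5, 11.2, 26.6 and 25.2 points. For UTRs at a level of 4 or more, the percent above the rest of the transcript was 92.1, 91.3, 94.7, 92.8, 93.5, 92.8 and 94.3 in all libraries but Cdc73-G313R.

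Counts against wild type moved with both scaling and filter; in the Paf1 deletion scaling moved them by less than 1.5 times. With quantile normalization, 46 UTRs were higher and 108 lower in the Leo1 deletion, 73 lower in Paf1-G104R, 253 higher and 569 lower in Cdc73-G313R, 208 lower in Rot1-Q472Stop, 113 and 303 in Leo1-W157Stop, and 46 and 68 in Paf1-Q264Stop. After centring on all elements the pairs were 60 and 89, 214 and 241, 111 and 222, 141 and 327, and 63 and 80 for the Leo1 deletion, for Cdc73-G313R, for Rot1-Q472Stop, for Leo1-W157Stop and for Paf1-Q264Stop. The medians of the 6 mutants other than the Paf1 deletion became -0.22, -0.11, -0.91, -0.21, -0.36 and -0.032 with quantile normalization. Centring gave -0.11, -0.088, -0.24, -0.18, -0.32 and -0.027. Over all members without a filter the 7 medians were 0, -0.25, -0.033, -0.51, -0.13, -0.21 and -0.068.

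A filter at level 4 gave the same counts as none, since a difference of 1 on this scale needs a level of 4. Higher counts were then 346, 40, 54, 89, 90 and 49 in the Paf1 deletion, Leo1 deletion, Paf1-G104R, Rot1-Q472Stop, Leo1-W157Stop and Paf1-Q264Stop. Lower counts were 228, 1586, 832 and 242 in Paf1-G104R, Cdc73-G313R, Leo1-W157Stop and Paf1-Q264Stop. A mean of both libraries of 5 or more left 99 higher and 251 lower in the Paf1 deletion, 15 and 288 in the Leo1 deletion, and 17 and 77 in Paf1-G104R. It left 407 lower in Cdc73-G313R, 243 lower in Rot1-Q472Stop, 37 and, rounded, 3.1e+02 in Leo1-W157Stop, and 16 and 100 in Paf1-Q264Stop. With log2(n + 1), 51, 24 and 47 were higher in Paf1-G104R, Cdc73-G313R and Paf1-Q264Stop. Asking that the interval of the level ratio exclude 1 left 15 higher in the Leo1 deletion. In all 7 mutants, centring gave 2 higher and 4 lower, and quantile normalization 2 higher and 9 lower. Without the Paf1 deletion 35 were lower in all that remained.

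A level of 5 rests on the fewest reads in the Paf1 deletion, 6.63 for a UTR of 260 nt against 31.6 in wild type. Members with no read numbered 2910 in Cdc73-G313R and 1425 in the Paf1 deletion, against 842 in wild type.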
